A study of Homo sapiens with 10 samples.

Results

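Phosphoinositide 3-kinase (PI3K) and the AKT kinases carry growth factor signals from the cell surface to metabolism, growth and survival. This report describes 8 genes of that route in HCT116 cells, a human colorectal cancer cell line: *PIK3CA* and *PIK3CB*, which encode catalytic subunits of PI3K, *PIK3R1* and *PIK3R2*, which encode its regulatory subunits, *PDPK1*, the kinase that activates AKT, the kinases *AKT1* and *AKT2*, and *PHLPP1*, a phosphatase that removes an activating phosphate from AKT. The genes were picked by name with earlier results of the same data known, so their own values in both experiments are given as a description and without a test. All 8 were among the 13029 genes of the knockout table and among the 17642 rows of the siRNA table, where *PIK3R2* has 2 rows.

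RNA was sequenced in 10 libraries. The knockout experiment compared 3 cultures of *ZMAT3*-WT with 3 of *ZMAT3*-KO cells. Both are single-cell clones of HCT116, the knockout having been made with Cas9 and a pair of guides around the p53 response element in an intron of *ZMAT3*, so the replicates are cultures of 1 clone each and a difference between genotypes cannot be told apart from a difference between clones. The labels of these 6 samples add the abbreviations EV and unt, which are not explained, and no vector or treatment was assumed. In the siRNA experiment, 2 libraries came from cells transfected for 72 hours with a control siRNA (siCTRL) and 2 from cells transfected with a pool of siRNAs against p53 (sip53). *ZMAT3* encodes an RNA-binding protein and is a transcriptional target of p53, the transcription factor that responds to DNA damage. The experiments therefore targeted 2 steps of the same route.

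PI3K adds a phosphate to a membrane lipid, which draws PDPK1 and AKT to the membrane, where PDPK1 and mTOR complex 2 phosphorylate AKT. Active AKT phosphorylates, among others, GSK3, TSC2 and the FOXO transcription factors, and FOXO factors leave the nucleus when phosphorylated. Lipid phosphatases such as INPP4B and the phosphatases PHLPP1 and PHLPP2 act against the route. RNA levels do not report the phosphorylation by which the route works, and proteins were not analysed here.

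The knockout values are log2 counts per 1e6 mapped fragments (log2 CPM), and the 6 libraries had been given 1 shared distribution before they were deposited. The siRNA table was taken to hold FPKM (fragments scaled to library size and transcript length), and its values were compared as log2(FPKM + 0.1), which understates the change of low genes. Neither table holds read counts, so the depth of the libraries is unknown. Between replicates, Pearson's r across genes (which are not independent) was 0.995 to 0.996 in the knockout and 0.958 to 0.964 in the siRNA experiment. *ZMAT3* followed the knockout labels: it was 5.00 to 5.26 log2 CPM in *ZMAT3*-WT and 2.20 to 2.34 in *ZMAT3*-KO cells. Of 6 colon epithelial markers, 5 had values in the knockout table, from 6.28 to 11.7 log2 CPM, and all 6 in the siRNA table, where *VIL1* was low at 0.13 FPKM in its lowest library. Of 6 markers of other cell types, only *COL1A1* had values in either table. In these bulk samples, fewer cells with a transcript and less of it per cell cannot be told apart.

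A pair of stretches near annotated starts of the genes is shown, *PIK3CA* and *PIK3R2* having the largest differences of the 8 genes in the knockout and in the siRNA experiment. The windows came from RefSeq (GRCh38.p14), are 300 bases long around each annotated start, and 14 of the 35116 windows belong to the 8 genes. Motifs were searched on both strands: the FOXO letters TGTTTAC, the AP-1 letters TGAGTCA, and the p53 half-site by its published consensus. The FOXO letters stood in 3.42% of all windows and in 1 of the 14, a window of *PIK3CA*. The stretch at chr3:179148197-179148226 on the plus strand holds it, with the motif in capitals beginning 149 bases before the start of that window's transcript, and lies within *PIK3CA* as the annotation below positions the gene. The AP-1 letters (4.95% of all windows) and the p53 half-site (6.63%) stood in none of the 14. The second stretch lies before the start that *PIK3R2* nearly shares with an overlapping read-through gene, at chr19:18152913-18153157 on the plus strand, with its 29 CG pairs in capitals and a GC content of 66.9%. A match is only a match of letters, and the lack of one says nothing about binding elsewhere.
PIK3CA: agttcgttgttTGTTTACacgatgtgagcg
PIK3R2: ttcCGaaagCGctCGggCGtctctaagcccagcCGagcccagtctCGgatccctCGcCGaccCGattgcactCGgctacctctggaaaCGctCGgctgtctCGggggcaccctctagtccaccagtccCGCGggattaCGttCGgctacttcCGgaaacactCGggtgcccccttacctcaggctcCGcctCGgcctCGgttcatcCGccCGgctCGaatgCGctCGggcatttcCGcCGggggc

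In *ZMAT3*-KO cells, 5 of the 8 genes were higher than in *ZMAT3*-WT cells and 3 were lower, and for all 8 the 3 libraries of one genotype lay apart from the 3 of the other. The higher genes were *PIK3CA*, *AKT2*, *PIK3R2*, *PIK3R1* and *AKT1*, and the lower ones *PHLPP1*, *PIK3CB* and *PDPK1*. Such separation was common in this table, where 64.2% of all genes showed it, 31.3% with higher and 32.9% with lower values in *ZMAT3*-KO cells. The median log2 difference was 0.18 for the 8 genes and -0.0052 for all 13029.

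Of the catalytic subunits, *PIK3CA* (p110alpha; chromosome 3, 179148114 to 179240093, plus strand, hg38) was 4.72, 4.82 and 4.82 log2 CPM in *ZMAT3*-WT and 5.37, 5.36 and 5.35 in *ZMAT3*-KO cells. Its log2 difference of 0.57 (standard error 0.040) was the largest of the 8, and at 1.49-fold it ended just under 1.5-fold, the fold threshold used further on for other genes. *PIK3CB* (p110beta; chromosome 3, 138652698 to 138834928, minus strand) was 6.26, 6.34 and 6.36 log2 CPM in *ZMAT3*-WT and 6.15, 6.19 and 6.11 in *ZMAT3*-KO cells, a log2 difference of -0.17 (standard error 0.036). The catalytic subunits thus stood on opposite sides, with *PIK3CA* higher and *PIK3CB* lower in the knockout clone.

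Of the regulatory subunits, *PIK3R1* (p85alpha; chromosome 5, 68215740 to 68301821, plus strand) was 4.18, 4.39 and 4.28 log2 CPM in *ZMAT3*-WT and 4.43, 4.54 and 4.43 in *ZMAT3*-KO cells, a log2 difference of 0.18 (standard error 0.057). Its highest *ZMAT3*-WT library was only just below its lowest *ZMAT3*-KO libraries. *PIK3R2* (p85beta; chromosome 19, 18153163 to 18170532, plus strand) was 6.47, 6.46 and 6.50 log2 CPM in *ZMAT3*-WT and 6.71, 6.84 and 6.73 in *ZMAT3*-KO cells, a log2 difference of 0.29 (standard error 0.036).

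*PDPK1* (chromosome 16, 2537979 to 2603188, plus strand) was 5.75, 5.79 and 5.77 log2 CPM in *ZMAT3*-WT and 5.61, 5.72 and 5.62 in *ZMAT3*-KO cells, and its log2 difference of -0.12 (standard error 0.038) was the smallest of the 8. *AKT1* (chromosome 14, 104769349 to 104795751, minus strand) was 7.31, 7.32 and 7.33 log2 CPM in *ZMAT3*-WT and 7.52, 7.47 and 7.48 in *ZMAT3*-KO cells, a 1.12-fold difference (log2 difference 0.17, standard error 0.027). *AKT2* (chromosome 19, 40230317 to 40285536, minus strand) was 6.50, 6.40 and 6.38 log2 CPM in *ZMAT3*-WT and 6.72, 6.73 and 6.70 in *ZMAT3*-KO cells, a 1.22-fold difference (log2 difference 0.29, standard error 0.035). Both AKT genes were thus higher in every knockout library, by small amounts. *PHLPP1* (chromosome 18, 62715541 to 62980433, plus strand) was 4.82, 4.78 and 4.80 log2 CPM in *ZMAT3*-WT and 4.58, 4.67 and 4.62 in *ZMAT3*-KO cells, a log2 difference of -0.18 (standard error 0.041). Apart from *PIK3CA*, the 8 genes differed by at most 1.22-fold, and 72.5% of all genes had a smaller difference, in either direction, than *AKT2*.

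**Figure D1:**
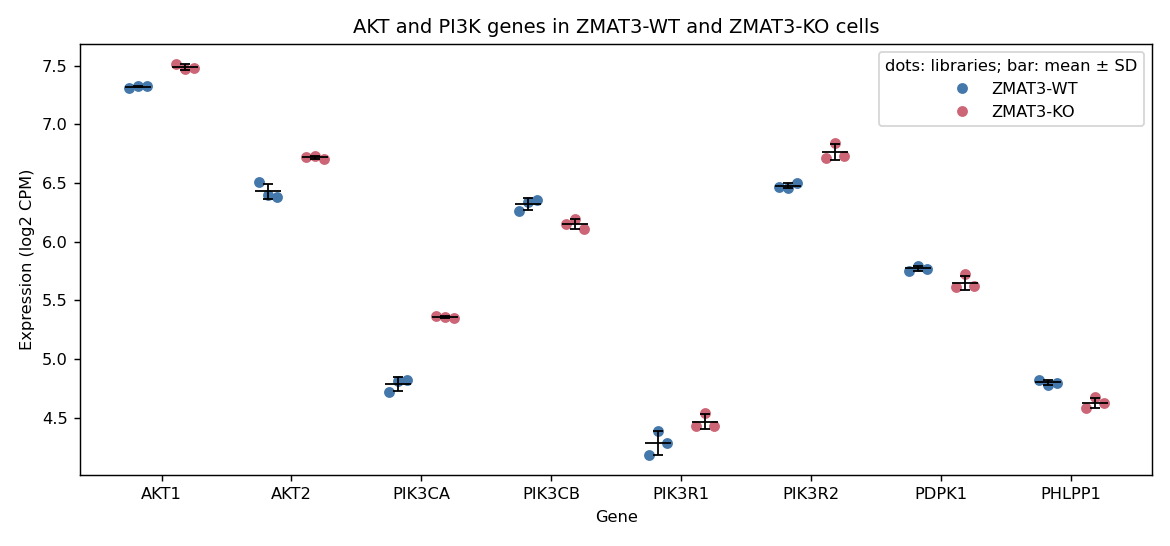
Expression of the 8 genes (log2 CPM, vertical axis) in the 3 *ZMAT3*-WT and 3 *ZMAT3*-KO libraries, with dots for libraries and black bars for the mean ± SD; heights are not comparable between genes, since CPM is not corrected for transcript length. *PIK3CA* shows the widest gap between genotypes, 0.57 on the log2 scale, and *PIK3CB*, *PDPK1* and *PHLPP1* lie lower in *ZMAT3*-KO cells.

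*PIK3CA* starts 75899 bases from the start of *ZMAT3*, the edited gene, which lies on the minus strand, and the genes around it were examined for this reason, after their values had been seen. Within 10 Mb of *ZMAT3* on the side of *PIK3CA*, 51 of the other 54 genes with values were higher in *ZMAT3*-KO than in *ZMAT3*-WT cells, with a median log2 difference of 0.51. For 49 of these 54 genes (90.7%) every *ZMAT3*-KO library was above every *ZMAT3*-WT library, against 31.3% of all genes, and 22 (40.7%) were higher past a limma adjusted p of 0.05 and 1.5-fold, against 4.6% of all genes. *ZNF639*, which follows *PIK3CA* on the chromosome, had a log2 difference of 0.69 and *MFN1* one of 0.36. On the other side of *ZMAT3*, the 18 genes within 10 Mb had a median of -0.15, and the 35 genes more than 12.5 Mb away on the side of *PIK3CA* had a median of -0.11. The 0.57 of *PIK3CA* was therefore close to the median of its neighbours. Between 10 and 12.5 Mb all 4 genes were higher, with a median of 1.59. Beyond 12.5 Mb the median was no longer raised, although single genes were still higher. Only 2 genes lay within 2.5 Mb of *ZMAT3* on the other side, 1 of them higher, so the edge of the stretch cannot be placed exactly.

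Such a stretch was rare in the knockout table. Of 422 windows of 5 Mb that held at least 10 genes, 90% had medians between -0.14 and 0.10, and only 2 had a median over 0.5, both of them on chromosome 3 beyond *PIK3CA*. In the siRNA experiment, which used no edited clone, the 57 genes beside *PIK3CA* in the same 10 Mb had a median log2 difference of -0.0096, with 26 of the 57 higher. DNA copy number was not analysed here, and how much of the *PIK3CA* difference belongs to the loss of *ZMAT3* and how much to the stretch of chromosome in this clone cannot be told apart.

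**Figure D2:**
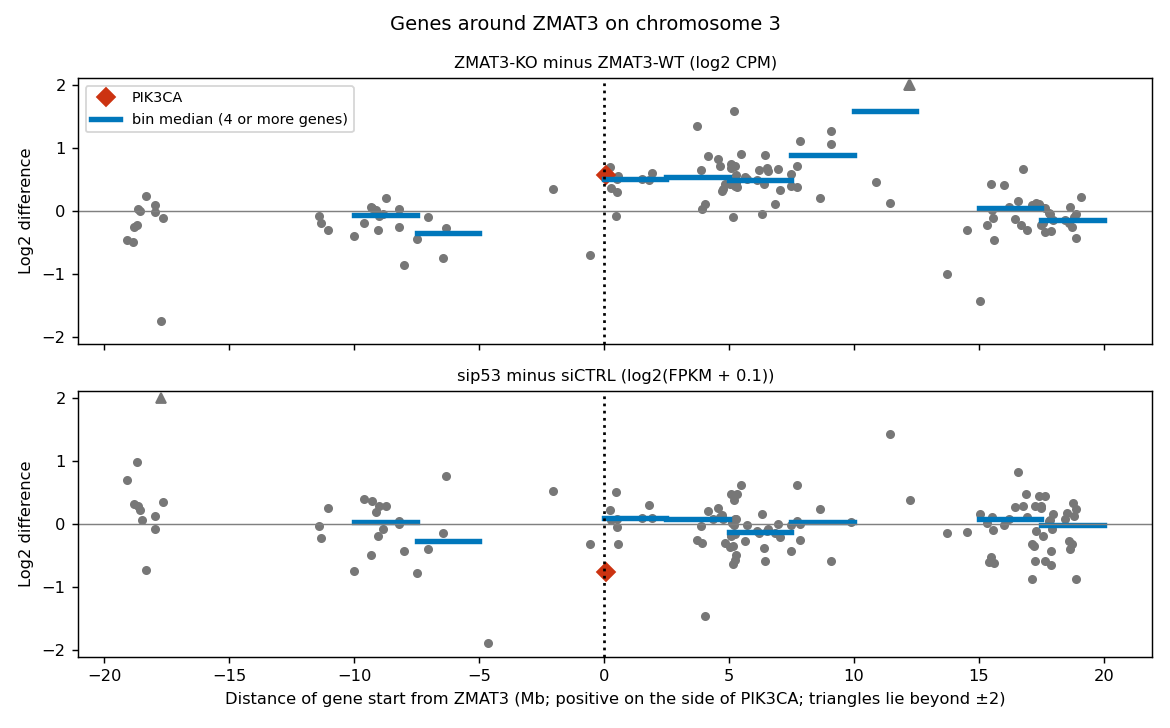
Log2 difference of each gene (dots, vertical axis) against its distance from *ZMAT3* in Mb (horizontal axis) in the knockout experiment (top) and the siRNA experiment (bottom), with *PIK3CA* as a diamond, blue lines for medians of 2.5 Mb bins with at least 4 genes, and triangles for genes beyond the axis. In the knockout experiment the genes up to 10 Mb on the side of *PIK3CA* sit around 0.51 and those on the other side around -0.15, while in the siRNA experiment both sides lie near 0.

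None of the other 7 genes lay in such a raised stretch. The genes within 5 Mb of *AKT2* had a median log2 difference of -0.0077 in the knockout experiment (161 genes), those around *PIK3R2* a median of 0.039 (125 genes) and those around *AKT1* a median of 0.034 (45 genes). For these 3 genes the difference was larger than the median of the neighbours. *PIK3R1*, which was higher in *ZMAT3*-KO cells, had 39 neighbours with a median of -0.13, and 25.6% of them were higher. *PHLPP1*, which was lower, had 17 neighbours with a median of 0.086. *PDPK1*, also lower, had 133 with a median of -0.0059. *PIK3CB* differed by about as much as its 40 neighbours, whose median was -0.14, and 35.0% of them were higher.

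With sip53, the levels of the 8 genes varied more between replicates, and 4 of their 9 rows separated the 2 siCTRL from the 2 sip53 libraries, all of them lower with sip53. These were *AKT1*, *AKT2*, *PIK3CA* and 1 row of *PIK3R2*. Among all 14274 genes tested, 46.4% were separated, 26.3% with lower and 20.1% with higher values in sip53. The median log2 difference of the 9 rows was -0.35, and that of all genes tested -0.040. This median counts *PIK3R2* by both of its rows, which were the lowest of the 9 at -1.13 and -1.01. A median with *PIK3R2* counted once was not computed. From 2 libraries against 2, an exact permutation test of a single gene cannot give a small p, and the siRNA values below should be read with the spread beside them.

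*PIK3R2* showed the largest differences of the 8 genes. The row ENSG00000268173 was 35.00 and 28.35 FPKM with siCTRL and 14.75 and 16.59 with sip53, a log2 difference of -1.01 (standard error 0.198) or 2.01-fold. The row ENSG00000105647 was 3.05 and 7.39 FPKM with siCTRL and 3.18 and 1.41 with sip53, so its groups overlapped, and its log2 difference of -1.13 had a standard error of 0.553. In GENCODE release 44, ENSG00000105647 is *PIK3R2* itself, and ENSG00000268173 is a read-through gene from 18153158 to 18178117 of chromosome 19 that starts 5 bases before *PIK3R2* and reaches over the next gene, *IFI30*, so reads of one can be counted for the other. Summed over both rows, the values were 38.05 and 35.74 FPKM with siCTRL (36.9 ± 1.63, SD, n = 2) and 17.93 and 18.00 with sip53 (18.0 ± 0.049, SD, n = 2), and the sums varied less between replicates than the rows did. *IFI30*, a thiol reductase of antigen processing, was 105.51 and 117.09 FPKM with siCTRL and 66.12 and 64.73 with sip53. Both were lower with sip53, and how many *IFI30* reads the read-through row holds was not tested. In the knockout experiment, where *PIK3R2* was higher, *IFI30* was 6.61, 6.52 and 6.52 log2 CPM in *ZMAT3*-WT and 6.63, 6.55 and 6.64 in *ZMAT3*-KO cells.

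*AKT2* was 76.91 and 46.68 FPKM with siCTRL and 32.61 and 39.69 with sip53, a log2 difference of -0.73 (standard error 0.289) or 1.66-fold. Its siCTRL libraries were themselves far apart, and the log2 difference ranged from -1.09 to -0.37 when libraries were left out one at a time. *AKT1* was 79.82 and 88.40 FPKM with siCTRL and 76.03 and 79.17 with sip53. The groups of *AKT1* were apart by less than 1 FPKM, and its log2 difference of -0.11 was smaller than its standard error of 0.177.

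*PIK3CA* was 7.90 and 11.78 FPKM with siCTRL and 7.47 and 4.29 with sip53, a log2 difference of -0.76 (standard error 0.345). Its lowest siCTRL and highest sip53 libraries were nearly equal, and leaving out 1 library at a time gave log2 differences from -1.15 to -0.36. *PIK3CB* was 20.65 and 25.63 FPKM with siCTRL and 27.47 and 18.52 with sip53, a log2 difference of -0.028 (standard error 0.258) with fully overlapping groups. Its direction changed in 3 of 10 other settings, among them centring each library on its median gene.

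*PIK3R1* was 16.26 and 10.01 FPKM with siCTRL and 12.98 and 24.11 with sip53, a log2 difference of 0.47 (standard error 0.383), and its groups overlapped. It moved with single libraries, from 0.024 to 0.91 with each library left out. *PDPK1* was 8.73 and 10.50 FPKM with siCTRL and 8.90 and 6.31 with sip53, a log2 difference of -0.35 (standard error 0.242), and *PHLPP1* was 3.96 and 3.95 FPKM with siCTRL and 4.65 and 3.78 with sip53, a log2 difference of 0.082 (standard error 0.214). Both had overlapping groups, and *PHLPP1* changed direction when 1 library was left out.

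**Figure D3:**
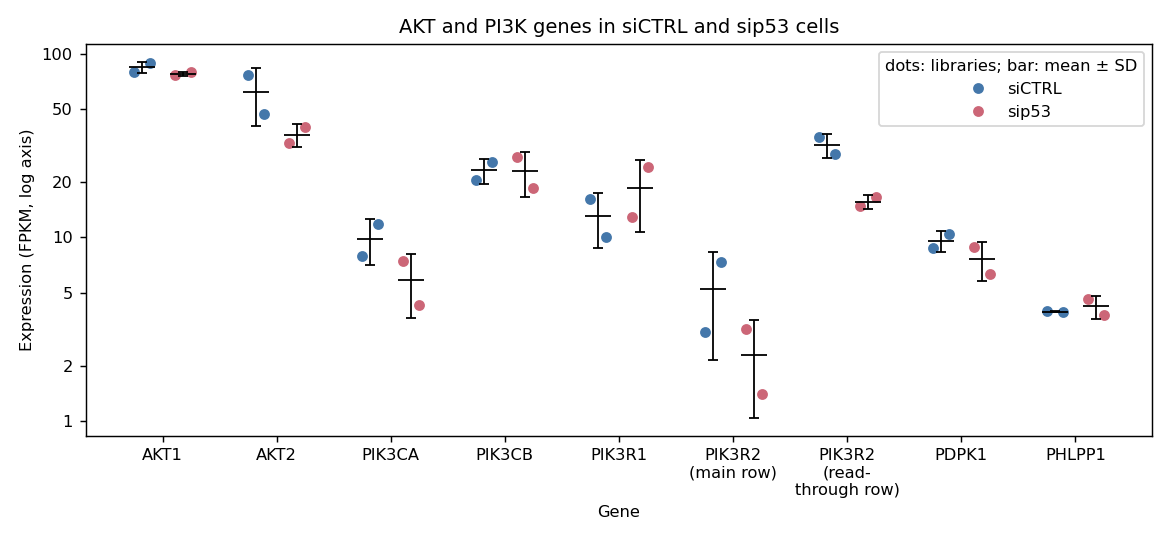
Expression of the 9 rows of the 8 genes (FPKM, log axis) in the 2 siCTRL and 2 sip53 libraries, with dots for libraries and black bars for the mean ± SD. *AKT2* and the read-through row of *PIK3R2* lie lower in both sip53 libraries, at 32.61 and 39.69 and at 14.75 and 16.59 FPKM, while *PIK3CB*, *PIK3R1*, *PDPK1*, *PHLPP1* and the main row of *PIK3R2* overlap.

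The experiments share no samples, and set side by side 4 of the 8 genes, *AKT1*, *AKT2*, *PIK3CA* and *PIK3R2*, stood higher in the knockout clone but lower after sip53. Among all genes, 6398 of 13029 were higher in the knockout and 7721 of 14274 lower with sip53, and the share doing both was not counted. For *AKT2* the log2 differences were 0.29 and -0.73, and for *PIK3CA*, which lies in the raised stretch of chromosome 3, 0.57 and -0.76. For *AKT1* they were 0.17 and -0.11, the latter smaller than its standard error of 0.177. For *PIK3R2* the knockout difference was 0.29. With sip53 its read-through row, which may hold *IFI30* reads, had -1.01, and its main row had -1.13 with overlapping groups. *PIK3R1* was higher in both, at 0.18 and 0.47, with overlapping siRNA groups, and *PDPK1* lower in both, at -0.12 and -0.35, again with overlap. *PIK3CB* had log2 differences of -0.17 and -0.028, and *PHLPP1* of -0.18 and 0.082. The siRNA groups of both overlapped, and the siRNA direction of both changed when single libraries were left out. *ZMAT3* itself was 12.00 and 13.62 FPKM with siCTRL and 3.16 and 1.97 with sip53, so both experiments lowered its RNA. The tables were normalized separately and the difference between the experiments was not tested.

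**Figure D4:**
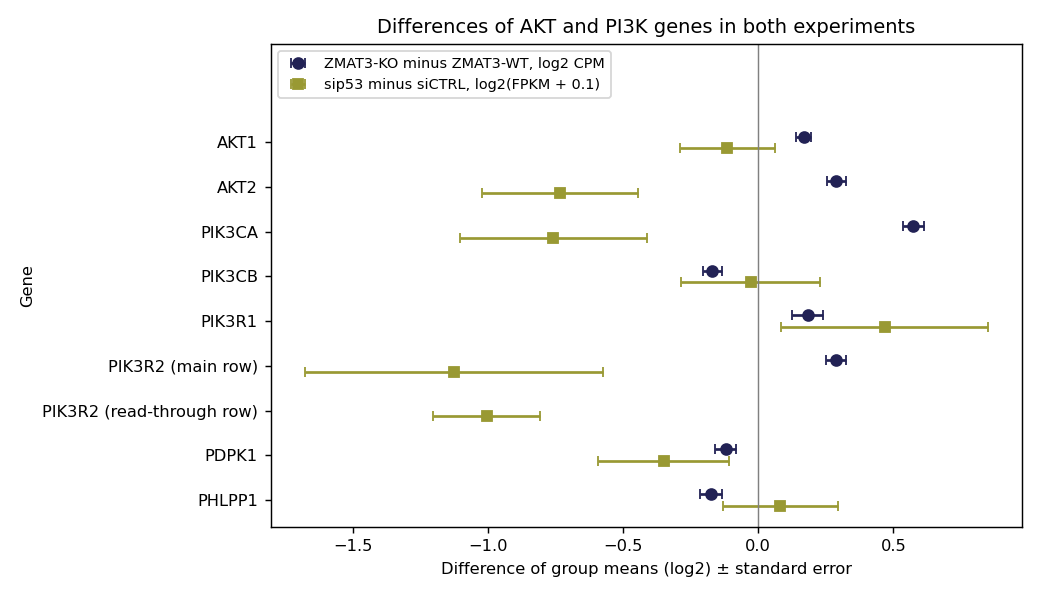
Log2 differences ± standard error (horizontal axis) of the 8 genes in the knockout experiment (circles) and the siRNA experiment (squares), with both rows of *PIK3R2* for the siRNA experiment. *AKT1*, *AKT2*, *PIK3CA* and *PIK3R2* lie right of 0 in the knockout and left of 0 in the siRNA experiment, and the siRNA standard errors, 0.177 to 0.553, are several times wider than the knockout ones, 0.027 to 0.057.

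FPKM is corrected for transcript length, so levels can be compared between genes in the siRNA libraries. By the mean of the 2 siCTRL libraries, *AKT1* was highest at 84.1 FPKM, followed by *AKT2* (61.8), the read-through row of *PIK3R2* (31.7), *PIK3CB* (23.1), *PIK3R1* (13.1), *PIK3CA* (9.84), *PDPK1* (9.62), the main row of *PIK3R2* (5.22) and *PHLPP1* (3.96). In sip53 *AKT1* (77.6) and *AKT2* (36.2) again came first, but the read-through row of *PIK3R2* (15.7) stood below *PIK3CB* (23.0) and *PIK3R1* (18.5), *PIK3CA* (5.88) below *PDPK1* (7.61), and the main row of *PIK3R2* (2.30) below *PHLPP1* (4.22). Within single libraries, *AKT1* exceeded *AKT2*, *AKT2* the read-through row, and *PDPK1* the main row of *PIK3R2* in 4 of 4. The read-through row was above *PIK3CB* in both siCTRL libraries and below it in both sip53 libraries, so that this order went with the group. *PIK3CB* exceeded *PIK3R1*, and *PIK3R1* exceeded *PIK3CA*, in 3 of 4 libraries. *PIK3CA* exceeded *PDPK1*, and the main row of *PIK3R2* exceeded *PHLPP1*, in 1 of 4, which leaves the order of these neighbours unsettled at this number of libraries.

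Within families, the isoforms took unequal shares. *AKT1* held 50.9% and 65.4% of the summed FPKM of *AKT1* and *AKT2* in the siCTRL libraries and 70.0% and 66.6% in the sip53 libraries, and *AKT2* held the rest. Of the class I catalytic subunits *PIK3CA*, *PIK3CB* and *PIK3CD*, *PIK3CB* made up 61.0% to 70.1%, and the share of *PIK3CA* was 24.6% and 28.0% with siCTRL and 19.1% and 16.1% with sip53. Of the regulatory subunits *PIK3R1*, *PIK3R2* and *PIK3R3*, *PIK3R2* (both rows) held 63.8% and 71.6% with siCTRL and 53.3% and 39.8% with sip53. In every library most of this came from the read-through row, and how many *IFI30* reads that row holds was not tested. The shares within this family carry the same limit. The share of *PIK3R1* was 27.2% and 20.1% with siCTRL and 38.6% and 53.4% with sip53. With 2 libraries a group, the shares of siCTRL and sip53 overlapped only for *PIK3CD* among the genes of these 3 families. Some margins were narrow: *AKT1* held 65.4% in a siCTRL and 66.6% in a sip53 library, and *PIK3R3* 8.30% and 8.09%. Shares of a whole move against each other by construction, so these separations are not independent. By level, 46.4% of all genes tested were separated, and no such background was computed for shares.

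The wider route was followed with 6 lists of 101 genes in all, written from general knowledge with earlier results of these data known. The shares of their genes that were called are therefore given as a description. The lists hold receptors and adaptors, other PI3K genes and related kinases, phosphatases and inhibitors, mTOR and TSC complex subunits, substrates and effectors, and FOXO target genes. In the knockout experiment 91 of them had values, and 11 (12.1%) passed both an adjusted p of 0.05 and 1.5-fold (limma, two-sided, adjusted over 13029 genes), 5 higher and 6 lower in *ZMAT3*-KO cells. Among all genes, 8.96% passed, 4.6% higher and 4.37% lower. Without the fold threshold 36 of the 91 were higher and 27 lower, where 58.8% of all genes passed, 28.7% higher and 30.1% lower, and the median log2 difference of the 91 was 0.018.

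Among the other PI3K genes and related kinases, 5 of 13 (38.5%) were called in the knockout experiment, where 8.96% of all genes were. This difference in shares was not tested. *SGK2*, a kinase related to AKT, was -0.60, -0.24 and -0.80 log2 CPM in *ZMAT3*-WT and 2.30, 2.39 and 2.46 in *ZMAT3*-KO cells, a rise of 2.93 (standard error 0.153, limma adjusted p = 7.08e-09). *SGK1* fell by 0.82 (standard error 0.104, limma adjusted p = 2.52e-05), so *SGK2* and *SGK1* changed in opposite directions. *SGK3* was higher by 0.19 and was not called at 1.5-fold. The *ZMAT3*-WT values of *SGK2* were low, and with a pseudocount of 1 CPM its rise was 1.88. *PIK3R3*, a further regulatory subunit, fell by 0.92 (limma adjusted p = 2.00e-05). *PDK1* rose by 0.64, but this symbol stands for pyruvate dehydrogenase kinase 1, an enzyme of glucose metabolism, and not for the AKT-activating kinase of the same alias. The call of *PDK1* was lost with a pseudocount of 1 CPM.

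Among the phosphatases and inhibitors, 2 of 22 (9.09%) were called, near the 8.96% of all genes. *INPP4B*, a lipid phosphatase that acts against AKT signalling, was 4.71, 4.79 and 4.85 log2 CPM in *ZMAT3*-WT and 2.69, 2.72 and 2.68 in *ZMAT3*-KO cells, a fall of 4.26-fold (log2 difference -2.09, standard error 0.053, limma adjusted p = 6.95e-12). *TRIB2*, a pseudokinase, rose by 0.80 (limma adjusted p = 8.16e-08). These calls were thus in opposite directions, but what *TRIB2* does to AKT in these cells was not tested, so they need not offset each other. In the siRNA experiment *INPP4B* had a log2 difference of -0.29 (standard error 0.187) and *TRIB2* one of 0.17 (standard error 0.302). Neither was called there.

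Among the receptors and adaptors, 3 of 10 were called. *IRS2*, an adaptor of the insulin receptor, fell by 1.00 on the log2 scale (limma adjusted p = 1.19e-07), being 3.53, 3.41 and 3.36 log2 CPM in *ZMAT3*-WT and 2.44, 2.50 and 2.35 in *ZMAT3*-KO cells. *PIK3AP1*, which links B-cell and Toll-like receptors to PI3K, fell by 0.65 (limma adjusted p = 3.18e-07), and *GAB1*, a docking protein of growth factor receptors, rose by 0.89 (limma adjusted p = 0.000400), a call that was lost with a pseudocount of 1 CPM. Of the FOXO target genes 1 of 12 (8.33%) was called, *KLF2*, a transcription factor, which rose by 0.68 (limma adjusted p = 5.55e-07). None of the 14 mTOR and TSC genes and none of the 20 substrates and effectors was called at 1.5-fold. At an adjusted p of 0.05 alone, 9 of the 14 (64.3%) and 11 of the 20 (55.0%) passed, near the 58.8% of all genes. The log2 differences ran from -0.25 to 0.27 over all 14 and from -0.33 to 0.43 over all 20.

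In the siRNA experiment 92 list genes were tested, and 19 (20.7%) passed an unadjusted limma p of 0.05, 5 higher and 14 lower with sip53, against 15.1% of all genes (5.86% higher, 9.28% lower). None of the 92 passed an adjusted p of 0.05, as 0.273% of all genes did (0.035% higher, 0.238% lower). Centring each library on its median gene gave 10 higher and 12 lower. The counts also moved with single libraries: 3 higher and 8 lower without siCTRL replicate 1, 2 and 11 without siCTRL replicate 2, and 3 and 15 without sip53 replicate 1. The median log2 difference of the 92 genes was -0.033, close to that of all genes.

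The phosphatases and inhibitors, of which 24 were tested, held 7 of these 19 calls (29.2% of the 24, against 15.1% of all genes). Lower with sip53 were 6 (25.0%, against 9.28% of all genes), and the difference in shares was not tested. *PHLDA3*, a known p53 target that keeps AKT from the membrane, was 26.20 and 33.66 FPKM with siCTRL and 8.50 and 7.81 with sip53, a log2 difference of -1.85 (standard error 0.204, limma adjusted p = 0.0564). *INPP5D*, the lipid phosphatase SHIP1, was 2.25 and 2.84 FPKM with siCTRL and 0.12 and 0.16 with sip53, and *PIK3IP1*, an inhibitor of PI3K, was 1.77 and 1.54 FPKM against 0.14 and 0.26. The log2 differences were -3.46 for *INPP5D* and -2.57 for *PIK3IP1* (limma adjusted p = 0.0578 and 0.112). *IGFBP3*, *SESN1* and *SESN2* were the other 3 lower inhibitors, and *TRIB3* was the only higher one, at a log2 difference of 0.54. These genes include several known p53 targets, and *CDKN1A*, the best known of those, was 525.01 and 481.06 FPKM with siCTRL and 34.22 and 37.67 with sip53.

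Among the substrates and effectors, 3 of 20 (15.0%) were called, near the 15.1% of all genes. All 3 were lower, where 9.28% of all genes were called lower. *EIF4EBP2*, a repressor of translation that mTOR complex 1 switches off, was 35.81 and 38.73 FPKM with siCTRL and 13.91 and 12.66 with sip53, a log2 difference of -1.48 (limma adjusted p = 0.0661). *ACLY*, the enzyme that makes acetyl-CoA from citrate, had a log2 difference of -1.22 (limma adjusted p = 0.107), and *GYS1*, muscle glycogen synthase, one of -0.76. *MTOR* was the only one of 14 mTOR and TSC genes called (7.14%), at a log2 difference of -0.58, and its call was lost in 6 other settings. Of the FOXO target genes 3 of 12 (25.0%) were called, all higher, where 5.86% of all genes were called higher. This difference in shares was not tested. *KLF2* was 7.58 and 7.31 FPKM with siCTRL and 16.50 and 21.71 with sip53 (log2 difference 1.33, limma adjusted p = 0.105), followed by *KLF6* (0.80) and *BNIP3* (0.61). Of the receptors and adaptors, *FRS2* (-0.86) and *PIK3AP1* (-0.74) were called lower, and of the other PI3K genes and related kinases *SGK3* (0.87) was called higher and *PIK3R3* (-0.68) and *PIK3C2B* (-0.51) lower. Several of these calls moved with the setting or with single libraries: *FRS2*, *PIK3AP1*, *PIK3R3*, *KLF6*, *BNIP3*, *TRIB3* and *PIK3C2B* each lost theirs in 4 to 7 other settings.

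Among the genes called in both experiments, *PIK3R3* and *PIK3AP1* were lower and *KLF2* was higher in both *ZMAT3*-KO and sip53 cells. The siRNA calls used an unadjusted p, and the limma adjusted p there was 0.275 for *PIK3R3*, 0.245 for *PIK3AP1* and 0.105 for *KLF2*. The siRNA calls of *PIK3R3* and *PIK3AP1* were each lost in 4 other settings. *PIK3R3* was 1.79, 2.01 and 1.94 log2 CPM in *ZMAT3*-WT and 0.90, 0.95 and 1.15 in *ZMAT3*-KO cells, and 5.36 and 4.14 FPKM with siCTRL and 2.72 and 3.08 with sip53. These 3 genes were picked out after their values were seen. No test of the overlap was made, and the share of all genes called in both was not counted.

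**Figure D5:**
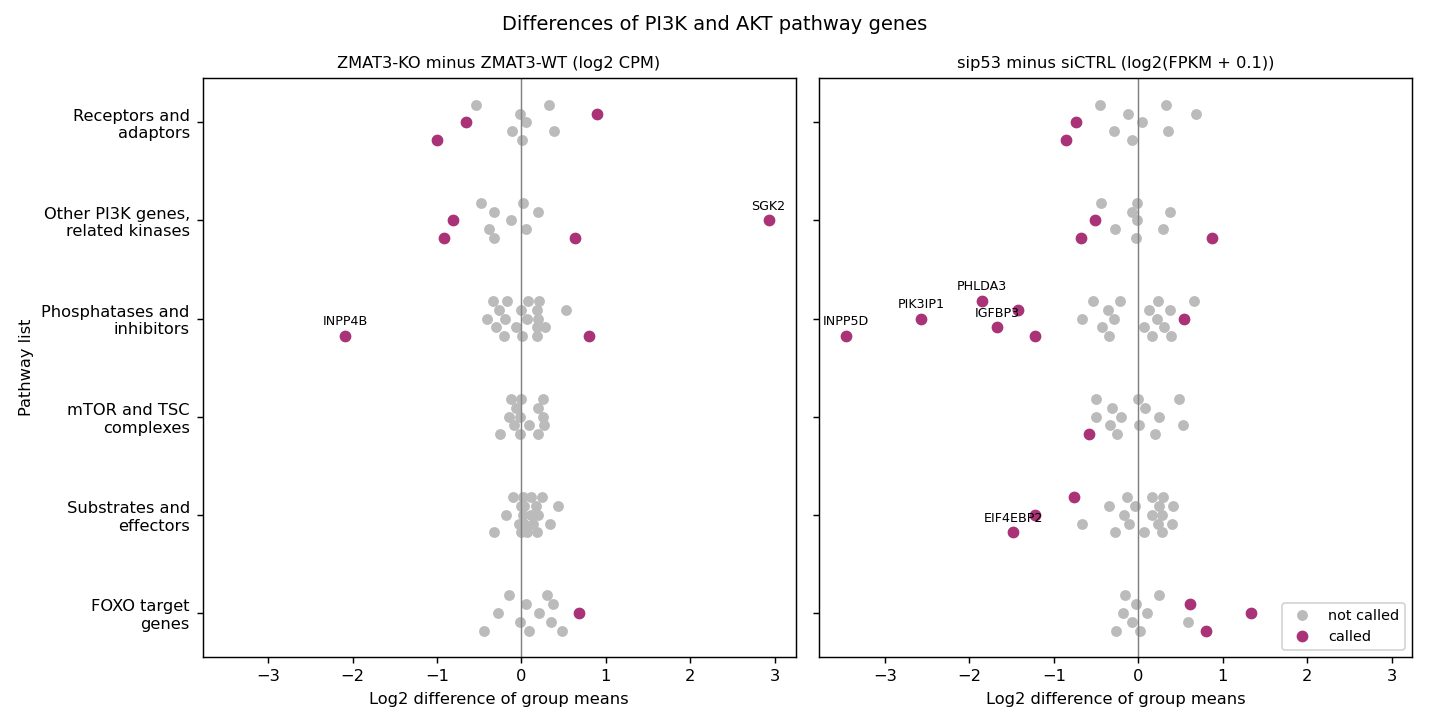
Log2 differences (horizontal axis) of the genes of the 6 pathway lists in the knockout experiment (left, 89 genes) and the siRNA experiment (right, 90 genes), each dot a gene, with called genes in purple and some genes not reported here left out. *INPP4B* at -2.09 and *SGK2* at 2.93 stand far from the other genes in the knockout experiment, and *INPP5D*, *PIK3IP1* and *PHLDA3* lie furthest to the left in the siRNA experiment.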

How the data were processed

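Samples were grouped by their labels. The knockout libraries were stranded and made from oligo(dT)-selected mRNA; Cutadapt, STAR (hg38) and RSEM were run by the authors, who deposited log2 CPM. The step from RSEM to log2 CPM is not given in the sources used here. The siRNA values that the authors deposited were read as FPKM from their form, since the labels name no unit. The submitters' processing notes name CASAVA 1.8.2, TopHat2 2.0.8 and FastQC 0.11.2, and both hg19 and hg38, without roles. The deposited tables also hold the authors' own fold changes (ratio), p-values, mean signal, statistics (score) and log2 fold changes, which were not used.

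Each experiment was fitted alone over all genes with limma 3.58.1 in R 4.3.3 (variance trend, two-sided, Benjamini-Hochberg adjustment). The knockout table was not filtered, and siRNA rows needed a mean of at least 0.5 FPKM (14274 of 17642), with a pseudocount of 0.1. The thresholds for a call were an adjusted p of 0.05 with 1.5-fold for knockout genes and an unadjusted p of 0.05 for siRNA genes, as the study set them. The p-values measure the spread between cultures of these clones and transfections. The fits were tested on simulated data. The 8 genes and the lists were chosen with earlier results of these data known. In each list and experiment, up to 3 called genes per direction with the largest difference were named, with *ZMAT3*, *CDKN1A* and *MDM2* as checks. *IFI30*, *IGFBP3*, *SESN1*, *SESN2* and the neighbours of *ZMAT3* were named after their values were seen. Some genes are counted in the tests but not reported here. Gene positions are from GENCODE release 44 (hg38), matched by symbol for 12112 genes of the knockout table and by identifier for 13809 tested genes of the siRNA table. Alternatives were a pseudocount of 1, other filters (a mean log2 CPM over 0, at least 5 FPKM on average, or none), centring on the median gene, a fit without a variance trend, a block for the replicate number, other thresholds, and leaving out each library. Python 3.11.15, pandas 2.3.3 and matplotlib 3.10.9 were used.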

Additional observations from a re-analysis of the deposited data

How the results depend on the processing

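In the knockout experiment all 8 genes kept their direction in every one of the 11 alternatives, and the median of their log2 differences stayed between 0.15 and 0.20. The list counts (5 higher, 6 lower) became 3 higher with a pseudocount of 1 CPM, 36 and 27 without the fold threshold, and 1 and 2 at 2-fold; leaving out each library gave 5 higher and 6 to 7 lower. The replicate number as a block gave 5 higher and 6 lower, and samples of the same number did not deviate together (r of -0.039, -0.022 and -0.093). In the siRNA experiment (5 higher, 14 lower) the counts became 9 lower with a mean of at least 5 FPKM, 10 higher with centring on the median gene (a shift of 0.076 towards higher values), 3 higher without a variance trend, and 0 and 0 at an adjusted p of 0.05; leaving out each library gave 2 to 4 higher and 8 to 15 lower. The replicate block gave 2 higher and 10 lower. Samples of the same number deviated apart (r of -0.62), and the block with crossed numbers, added after seeing the data, gave 16 higher and 27 lower. The filter at 5 FPKM removed *PHLPP1* and a row of *PIK3R2*. For the siRNA changes with a setting the cause was not tested, and unknown depth limits how low values can be read.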

Other observations

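For 4 of the 8 genes, the genes with the most similar pattern were listed by the root mean square difference of log2 values, centred within each experiment, over the 10 libraries and 11370 genes. For *AKT1* these were *YKT6* (0.023), *TIMM10B* (0.029) and *NGRN* (0.032), with a median over all genes of 0.203. For *AKT2* they were *MPI* (0.058), *GULP1* (0.068) and *NKIRAS2* (0.073), with a median of 0.349. For *PIK3R1* they were *PHF21A* (0.063), *EPB41L2* (0.079) and *R3HDM2* (0.086), with a median of 0.363, and for *PHLPP1* they were *CSE1L* (0.038), *ZBTB6* (0.040) and *PMS1* (0.043), with a median of 0.214. These values describe the same 10 libraries and carry no test. *MDM2*, whose protein degrades p53, was 7.54, 7.65 and 7.66 log2 CPM in *ZMAT3*-WT and 7.40, 7.44 and 7.39 in *ZMAT3*-KO cells, and 92.42 and 105.91 FPKM with siCTRL and 42.36 and 37.82 with sip53.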
